A study of Mus musculus with 91 samples.

Results

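Lep, Sfrp5, Bmp3, Mest and Npr3 form a set of 5 genes that are expressed in fat and are linked to the filling and enlargement of adipocytes. They were chosen by name, with earlier results of these data known. Shares of all probes given beside the 5 genes are therefore a description and not a test of the set. Every array probe whose annotated symbol was among the 5 was taken, which gave 12 of 45281 probes and 5 of 19057 genes. Lep, Sfrp5 and Bmp3 had 1 probe each, Mest had 3 and Npr3 had 6, and the probe with the highest mean signal over the EAT arrays stood for its gene. RNA of epididymal white adipose tissue (EAT), mesenteric white adipose tissue (MAT) and liver came from male C57BL/6J mice, an inbred strain that becomes obese on fatty food. The HFD group ate AIN-76, a purified rodent diet, with added fat and cholesterol, and the ND group ate AIN-76 alone. In EAT there were 3 RNA pools per diet at 2, 4, 8, 20 and 24 weeks of feeding, when the mice were 7, 9, 13, 25 and 29 weeks old, or 30 arrays. In MAT there was 1 pool per diet at each of the same weeks, or 10 arrays. Liver had 51 arrays, 3 per diet at each of the same weeks and also at 6, 12 and 16 weeks, and 3 of a baseline group at 0 weeks. The mice of the baseline group were 5 weeks old, and those of 6, 12 and 16 weeks were 11, 17 and 21 weeks old. The comparison of HFD with ND at each week asked when each gene responded to the diet, and the weeks within a diet asked how it changed as the mice grew.

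Adipocytes store triglyceride and enlarge when energy intake exceeds use. Leptin, the product of Lep, is a hormone that adipocytes secrete in proportion to their stores and that acts on the hypothalamus to restrain feeding. Sfrp5 is a secreted protein that binds Wnt ligands and keeps them from their receptors. Bmp3 is a secreted member of the bone morphogenetic protein (BMP) family that opposes signalling by other BMPs. Mest is an imprinted gene, transcribed from the paternal copy, whose product is a membrane protein of the endoplasmic reticulum and whose level in mouse fat is known to go with fat mass expansion. Npr3 is the clearance receptor that removes natriuretic peptides, hormones which otherwise stimulate lipolysis.

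In GRCm38.p6, Lep lies on chromosome 6 from 29060221 to 29073876 and Mest on the same chromosome from 30733506 to 30748466. Sfrp5 lies on chromosome 19 from 42197971 to 42202252, Bmp3 on chromosome 5 from 98854415 to 98884053, and Npr3 on chromosome 15 from 11839896 to 11907837. The RefSeq promoter table held 6 promoters of 4 of the 5 genes, each with 250 bases before and 50 bases from the start site on. Those of Lep and Sfrp5 are shown because these genes had the highest correlation with each other over the pools. Capitals mark matches, on either strand, to GGGCGG, the letters of the GC box, to the CCAAT box, which is named by its letters, or to TTGCNNAA, the motif bound by C/EBP factors. Both sequences run 5′ to 3′ on the strand of the gene.
Lep, chr6:29059971-29060270, plus strand: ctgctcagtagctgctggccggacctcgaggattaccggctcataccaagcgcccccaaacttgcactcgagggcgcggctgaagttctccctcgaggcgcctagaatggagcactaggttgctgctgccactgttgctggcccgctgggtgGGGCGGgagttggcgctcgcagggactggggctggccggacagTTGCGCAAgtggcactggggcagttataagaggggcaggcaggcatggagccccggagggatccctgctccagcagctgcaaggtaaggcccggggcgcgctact
Sfrp5, chr19:42202203-42202502, minus strand: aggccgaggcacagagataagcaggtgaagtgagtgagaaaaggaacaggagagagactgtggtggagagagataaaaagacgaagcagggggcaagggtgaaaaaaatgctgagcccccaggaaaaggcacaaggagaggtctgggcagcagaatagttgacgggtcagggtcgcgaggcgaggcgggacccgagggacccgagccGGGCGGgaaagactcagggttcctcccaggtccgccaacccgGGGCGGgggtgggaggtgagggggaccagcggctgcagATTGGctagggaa
The Lep promoter had a GC content of 66.0% and the Sfrp5 promoter 61.3%, against a median of 52.7% over all 32851 promoters. With the first transcribed base as 0, the Lep window held 1 GC box from -98 to -93 and 1 C/EBP motif from -55 to -48. The Sfrp5 window held GC boxes from -43 to -38 and from -1 to 4, and a CCAAT box on the opposite strand from 37 to 41. A GC box was present in 35.7% of all promoters, a CCAAT box in 37.4% and a C/EBP motif in 10.8%. TATAAA (13.6% of all promoters), AGGTCA (16.3%), CACGTG (7.15%) and ACGTG (19.6%, which includes every CACGTG) were searched too and matched neither window.

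Between 39.8% and 47.7% of all probes were detected on an EAT array (detection p under 0.05), and between 35.8% and 45.2% on a MAT array. Of the 12 member probes, 11 were detected on all 30 EAT arrays, and Npr3 probe ILMN_2568364 was detected on 1 of them and is not described further. The background, taken as the 5th percentile of an array's intensities, was 110 to 121 on 9 EAT arrays, those of ND at 2 weeks and of both diets at 24 weeks, and 75.7 to 92.1 on the other 21, so that diet and background cannot be told apart at 2 weeks. HFD pools 2 and 3 of 4 weeks carried transcripts of the epididymis, with the mean of 5 marker genes at 7.72 to 14.63 in HFD pools and 7.55 to 9.76 in ND pools of that week. The mean of 9 adipocyte marker genes was lower in every HFD pool than in every ND pool at 8 weeks (11.38 to 11.39 against 11.52 to 11.61), 20 weeks (11.11 to 11.18 against 11.46 to 11.63) and 24 weeks (10.86 to 11.23 against 11.59 to 11.76). The mean of 7 macrophage markers was higher, at 11.40 to 11.46 in HFD pools and 10.16 to 10.45 in ND pools at 20 weeks. The mean of 6 liver marker genes was 10.96 to 11.34 in HFD pools and 10.60 to 11.55 in ND pools at 8 weeks. It was 7.96 to 9.81 in HFD pools and 6.99 to 7.05 in ND pools at 2 weeks, and 6.77 to 8.60 at the other weeks in either diet. In a bulk sample, fewer cells of a type and less RNA per cell cannot be told apart.

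Averaged over the weeks from 4 weeks on, Sfrp5, Bmp3 and Lep were higher in HFD EAT than in ND EAT (1.86-, 1.47- and 1.26-fold), whereas Mest and Npr3 showed no common direction over the weeks. All values below are log2 of quantile normalised intensity, and fold changes and adjusted p-values come from 1 limma fit over the 30 EAT arrays. A gene was called at an adjusted p under 0.05 and a log2 fold change over 1 in size. By this rule 1 of the 5 genes, Sfrp5 at 8 weeks, was called on its main probe, where 0.0751% of all probes were called as higher. At 4, 20 and 24 weeks limma called 0 of the 5 genes, where 0.133%, 0.636% and 0.976% of all probes were called as higher. At each of these weeks 3 genes had an unadjusted limma p under 0.05. This is a looser rule, for which no share of all probes is given, so the count of 3 has no comparison. The median log2 fold change of the 5 genes was 0.37, 0.42, 0.36, 0.37 and 0.35 from 2 to 24 weeks, while that of all probes lay between -0.0465 and -0.00061.

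Lep was already among the brightest probes of the array and climbed with weeks of feeding in both diets. At 2 weeks its values were 14.40, 13.99 and 14.39 in the HFD pools, against 14.20, 14.52 and 14.16 in the ND pools. At 4 weeks they were 15.34, 14.61 and 14.77 in the HFD pools and 14.84, 14.58 and 14.54 in the ND pools. At both weeks the pools of the 2 diets overlapped. At 8 weeks Lep stood at 15.21, 15.43 and 15.17 in the HFD pools and at 14.70, 15.09 and 14.92 in the ND pools. At 20 weeks the values were 15.84, 15.77 and 15.77 in the HFD pools and 15.68, 15.27 and 15.32 in the ND pools. At 24 weeks they were 15.65, 16.00 and 15.73 in the HFD pools and 15.29, 15.61 and 15.42 in the ND pools. All HFD pools lay above all ND pools at these 3 weeks, although HFD pool 1 of 24 weeks exceeded the highest ND pool only slightly. The log2 fold changes of 8, 20 and 24 weeks were 0.36, 0.37 and 0.35 (SE 0.161 each, n = 3 pools per diet), or 1.29-, 1.29- and 1.28-fold, and none passed the adjusted threshold (limma adjusted p = 0.45, 0.215 and 0.197). At 2 and 4 weeks the log2 fold changes were -0.04 and 0.26 (adjusted p = 0.89 and 0.70).

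The Lep values were near the upper end of the scale, and Lep ranked 9 to 223 by intensity among all probes of an EAT array. The highest normalised value of any probe was 16.09, and before normalisation Lep had 61716 to 64004 intensity units at 20 weeks in HFD pools and 37123 to 41357 in ND pools. At 24 weeks the intensities were 59526 to 63695 in HFD pools and 57723 to 65664 in ND pools. At 20 weeks this was 87.1% to 89.9% of the brightest probe of the array in HFD pools and 52.6% to 59.2% in ND pools. When arrays were scaled by their medians in place of quantile normalisation, the log2 fold change of Lep at 20 weeks was 0.63 (adjusted p = 0.00239), and at 24 weeks it was 0.16 (adjusted p = 0.551). The part of the upper end of the scale in these differences was not tested.

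Sfrp5 had the largest diet effect of the 5 genes at every week from 4 weeks on. At 2 weeks it had values of 8.45, 8.66 and 8.96 in the HFD pools, against 8.32, 8.86 and 7.78 in the ND pools, which overlapped. At 4 weeks the values were 10.22, 9.69 and 10.14 in the HFD pools, against 9.21, 9.20 and 8.94 in the ND pools. At 8 weeks they were 11.29, 11.26 and 10.77 in the HFD pools, against 9.26, 9.96 and 9.81 in the ND pools. The lowest HFD pool of 8 weeks exceeded the highest ND pool by more than the HFD pools differed among themselves. At 20 weeks Sfrp5 had 11.85, 11.87 and 11.63 in the HFD pools and 10.73, 11.20 and 11.28 in the ND pools. At 24 weeks it had 12.37, 11.91 and 11.73 in the HFD pools and 11.37, 11.66 and 11.39 in the ND pools. The diets did not overlap at any of the 4 later weeks, but at 24 weeks the lowest HFD pool was only just above the highest ND pool. The log2 fold change was 0.90 at 4 weeks (SE 0.233, 1.87-fold, adjusted p = 0.0932), and at 8 weeks it was 1.43 (SE 0.233, 95% CI 0.95 to 1.91, 2.7-fold, adjusted p = 0.00245). It was 1.22 to 1.60 with any 1 of the 6 pools of 8 weeks left out and passed each time, but the methods' t-test, which uses the spread of those pools alone, gave an adjusted p of 0.162. All 6 pools of 8 weeks also carried liver transcripts, at levels given above that overlapped between the diets, and their part in this value was not tested. At 20 and 24 weeks it was 0.71 and 0.53 (1.64- and 1.44-fold, adjusted p = 0.065 and 0.173), and at 2 weeks 0.37 (adjusted p = 0.227).

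Bmp3 in HFD EAT stood at about the same level from 4 to 24 weeks, above ND EAT. At 2 weeks its values were 10.08, 9.88 and 10.52 in the HFD pools and 9.52, 10.03 and 9.57 in the ND pools. At 4 weeks Bmp3 had 11.15, 10.80 and 10.79 in the HFD pools and 10.25, 10.03 and 10.32 in the ND pools. The diets overlapped at 2 weeks, where ND pool 2 lay above HFD pool 2, and were apart at 4 weeks. At 8 weeks Bmp3 had 11.00, 10.90 and 10.88 in the HFD pools and 10.02, 10.30 and 10.45 in the ND pools. At 20 weeks it had 11.03, 10.94 and 10.98 in the HFD pools and 10.91, 10.44 and 10.41 in the ND pools. At 24 weeks it had 10.87, 11.00 and 10.64 in the HFD pools and 10.25, 10.35 and 10.61 in the ND pools. The diets stayed apart at these weeks, with ND pool 1 just under the HFD pools at 20 weeks and HFD pool 3 just over the ND pools at 24 weeks. The log2 fold changes were 0.71 at 4 weeks and 0.67 at 8 weeks (SE 0.163, 1.64- and 1.59-fold), with adjusted p-values of 0.0521 and 0.0544, followed by 0.39 and 0.44 at 20 and 24 weeks (adjusted p = 0.18 and 0.0958). At 2 weeks the log2 fold change of 0.46 (1.37-fold) had an adjusted p of 0.0316, on arrays whose background differed between the diets, where 14.5% of all probes were higher at an adjusted p under 0.05. It no longer passed without HFD pool 3, ND pool 1 or ND pool 3 (0.28, 0.36 and 0.39), or when arrays were scaled by their medians (0.27, adjusted p = 0.165).

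The main probe of Mest was higher in the HFD group at 2 weeks, where array background differed between the diets too, and had no clear difference afterwards. At 2 weeks its main probe ILMN_2642417 had 10.68, 10.78 and 10.67 in the HFD pools, against 10.11, 10.42 and 9.57 in the ND pools, with no overlap. The log2 fold change at 2 weeks was 0.67 (SE 0.233, 1.59-fold, adjusted p = 0.0268), where 14.5% of all probes were higher at an adjusted p under 0.05. It no longer passed without HFD pool 1, HFD pool 2 or ND pool 3 (adjusted p = 0.0512, 0.0696 and 0.179). On the same arrays Mest probes ILMN_2846904 and ILMN_2642418 had 2.98 and 0.15 (adjusted p = 5.83e-11 and 0.573). At 4 weeks Mest had 11.45, 10.57 and 10.49 in the HFD pools, against 11.15, 11.43 and 10.83 in the ND pools. The HFD pools of 4 weeks were far apart, and the 2 low ones were those that carried epididymal transcripts. At 8 weeks it had 11.25, 11.47 and 11.23 in the HFD pools and 11.26, 11.32 and 11.11 in the ND pools. At 20 weeks it had 11.65, 11.62 and 11.71 in the HFD pools and 12.62, 11.81 and 11.79 in the ND pools. At 24 weeks it had 11.13, 11.40 and 10.81 in the HFD pools and 10.87, 11.21 and 11.01 in the ND pools. The HFD pools lay below all ND pools at 20 weeks, where ND pool 1 stood apart, and overlapped with them at 8 and 24 weeks. From 4 to 24 weeks the log2 fold changes were -0.30, 0.09, -0.41 and 0.08 (SE 0.233), with adjusted p-values of 0.79, 0.983, 0.396 and 0.909.

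The direction of the Npr3 diet difference varied with the week, and none passed the adjusted threshold on its main probe after quantile normalisation. Its main probe ILMN_3127391 had 12.22, 12.06 and 12.32 in the HFD pools at 2 weeks, against 12.65, 12.63 and 12.35 in the ND pools, so that all HFD pools were lower. At 4 weeks Npr3 had 13.20, 12.50 and 12.28 in the HFD pools and 12.17, 12.25 and 12.30 in the ND pools. At 8 weeks it had 12.78, 12.81 and 12.77 in the HFD pools and 12.32, 12.67 and 12.59 in the ND pools. The diets overlapped at 4 weeks, where HFD pool 1 was high, and all HFD pools were higher at 8 weeks. At 20 weeks Npr3 had 12.83, 12.79 and 12.71 in the HFD pools and 13.53, 12.78 and 12.66 in the ND pools. At 24 weeks it had 12.69, 13.06 and 12.58 in the HFD pools and 12.91, 12.95 and 13.07 in the ND pools. The diets overlapped at both late weeks, and ND pool 1 of 20 weeks was again the highest. The log2 fold changes from 2 to 24 weeks were -0.35, 0.42, 0.26, -0.21 and -0.20 (SE 0.189, adjusted p = 0.159 to 0.755). Whether it passed depended on the setting, since under median scaling the values of 2 and 24 weeks were -0.46 and -0.38 (adjusted p = 0.00046 and 0.00881), and with each week fitted alone that of 2 weeks passed at -0.35 (adjusted p = 0.0488).

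**Figure D1:**
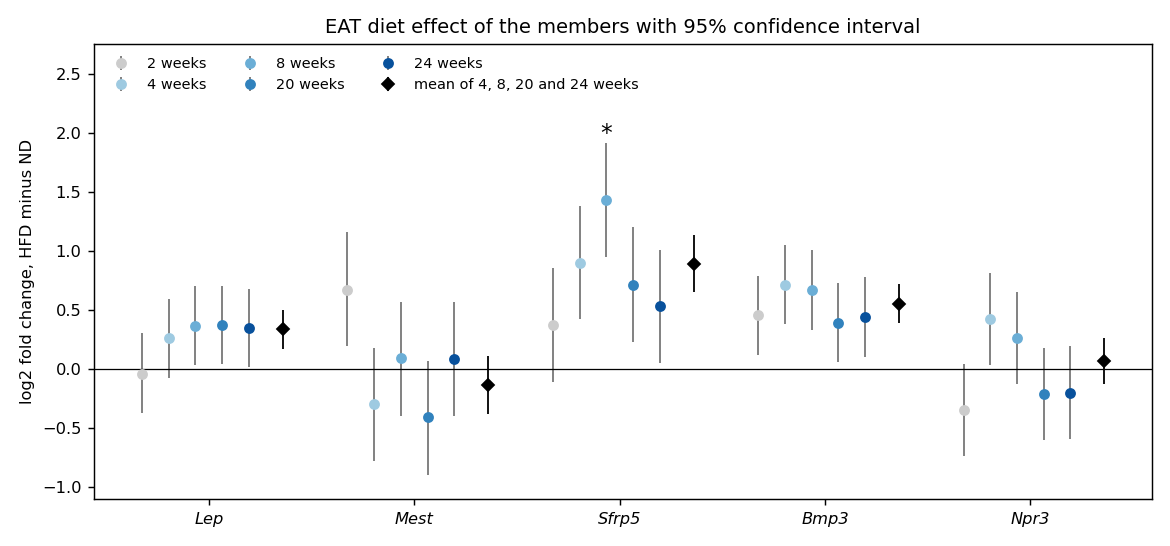
Log2 fold change of HFD over ND in EAT against weeks of feeding for the main probe of each gene, with bars for the 95% confidence interval of the limma fit (n = 3 pools per diet) and an asterisk where the gene was called. Sfrp5 peaked at 1.43 at 8 weeks, Bmp3 lay between 0.39 and 0.71 at all weeks, and the values of Npr3 ran from -0.35 at 2 weeks to 0.42 at 4 weeks and -0.20 at 24 weeks.

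Counted over the genes, all HFD pools lay above all ND pools for 1 of 5 genes at 2 weeks, where 18.7% of all probes did so, and for 2 of 5 at 4 weeks, where 5% did. At 8 weeks the count was 4 of 5, against 10.7% of all probes, and at 20 and 24 weeks it was 3 of 5, against 12.2% and 13.2%. Because the genes were chosen with earlier results of these data known, these shares do not test the set. All HFD pools lay below all ND pools for Npr3 at 2 weeks and for Mest at 20 weeks. The share of all probes in this direction was not counted, so these cases have no comparison.

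Averaged over 4, 8, 20 and 24 weeks, the weeks at which arrays of both diets had a like background, 3 of the 5 genes were higher in HFD EAT at an adjusted p under 0.05, as were 5.81% of all probes. This average was chosen after the data were seen. Sfrp5 was 0.89 log2 units higher (SE 0.116, 95% CI 0.65 to 1.13, 1.86-fold, adjusted p = 5.3e-06), with means of 11.23 in HFD and 10.33 in ND. Bmp3 was 0.55 higher (SE 0.0815, 95% CI 0.39 to 0.72, 1.47-fold, adjusted p = 2.79e-05), with means of 10.91 and 10.36 in HFD and ND. Lep was 0.34 higher (SE 0.0805, 95% CI 0.17 to 0.50, 1.26-fold, adjusted p = 0.00551), with means of 15.44 in HFD and 15.11 in ND. Mest (-0.14, 95% CI -0.38 to 0.11, adjusted p = 0.596) and Npr3 (0.07, 95% CI -0.13 to 0.26, adjusted p = 0.788) did not pass. The 3 genes passed with each of the 4 weeks left out (0.71 to 1.02 for Sfrp5, 0.50 to 0.61 for Bmp3 and 0.32 to 0.36 for Lep). Without HFD pools 2 and 3 of 4 weeks, which leaves 1 HFD pool at that week, the averages were 0.94, 0.61 and 0.44. ND pools 2 and 3 of that week stayed in, although their epididymis marker means were 9.76 and 9.41, against 7.55 in ND pool 1. Npr3 probe ILMN_1236914 also passed (0.25, adjusted p = 0.0235), while the other detected Npr3 and Mest probes did not. The adipocyte markers were lower in HFD over the later weeks, as given above. Their part in the diet differences was not tested. An alternative chosen after seeing the data subtracted each array's adipocyte marker mean, which moves every probe of an array alike, and the median of all probes was then 0.18, 0.39 and 0.58 at 4, 20 and 24 weeks and 0.33 averaged. Under it 4 of the 5 genes were higher on average at an adjusted p under 0.05 (Sfrp5 1.23, Bmp3 0.89, Lep 0.67 and Npr3 0.40, with Mest at 0.20), as were 91.5% of all probes. Sfrp5 was then called at 4, 20 and 24 weeks and Bmp3 at 24 weeks, where 0.219%, 1.87% and 4.13% of all probes were called as higher at 4, 20 and 24 weeks. All 5 genes had an adjusted p under 0.05 at 24 weeks (0.38 to 1.11), as did 88.2% of all probes in the same direction.

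Lep and Sfrp5 climbed with weeks of feeding in both diets, by more log2 units than the diets differed at any 1 week. From 4 to 20 weeks Sfrp5 increased by 1.77 in the HFD group (SE 0.233, 3.41-fold, adjusted p = 6.78e-06) and by 1.95 in the ND group (3.87-fold, adjusted p = 2.21e-05). Sfrp5 was the 1 gene of the 5 that passed with a log2 difference over 1, in both diets, where 1.04% of all probes in HFD and 0.194% in ND did so. That count depended on the scaling. Under median scaling Lep (1.28), Mest (1.31) and Sfrp5 (2.23) passed in HFD, where 2.39% of all probes did, and Mest (1.01) and Sfrp5 (2.08) in ND, where 0.322% did. Lep increased by 0.88 in HFD (SE 0.161, 1.84-fold, adjusted p = 0.000361) and by 0.77 in ND (1.71-fold, adjusted p = 0.00551). Mest increased by 0.82 in HFD (adjusted p = 0.0157) and by 0.94 in ND (adjusted p = 0.0181). Npr3 increased by 0.75 in ND (adjusted p = 0.0189), with 0.12 in HFD (adjusted p = 0.748), but under median scaling the HFD value was 0.62 (adjusted p = 2.65e-05). Bmp3 differed by 0.07 in HFD and 0.39 in ND, and neither passed (adjusted p = 0.832 and 0.178), whereas under median scaling both did (0.51 in HFD and 0.52 in ND, adjusted p = 0.0152 and 0.0338).

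The change over these weeks could not be shown to differ between the diets for any of the 5 genes. The difference of HFD minus ND in the 20-minus-4-week change was 0.11 for Lep (95% CI -0.36 to 0.58), -0.18 for Sfrp5 (95% CI -0.87 to 0.50) and -0.64 for Npr3 (95% CI -1.19 to -0.08, adjusted p = 0.247). Under median scaling that of Lep was 0.48 (adjusted p = 0.162). Single pools bore on several of these values. Without HFD pools 2 and 3 of 4 weeks the HFD change was 0.45 for Lep (adjusted p = 0.138) and 0.21 for Mest (adjusted p = 0.698), that of Sfrp5 still passed (1.57, adjusted p = 0.00262), and the Npr3 difference was -1.18 (adjusted p = 0.014). ND pool 1 of 20 weeks was the highest ND pool of its week for Lep, Mest, Npr3 and Bmp3. Without it the ND change was 0.64 for Lep (adjusted p = 0.0509), 0.66 for Mest (adjusted p = 0.149) and 0.49 for Npr3 (adjusted p = 0.16). The ND change of Npr3 also missed the threshold without ND pool 1 or 2 of 4 weeks (adjusted p = 0.0657 and 0.0593), that of Mest without ND pool 3 of 4 weeks (adjusted p = 0.0951), and the HFD change of Mest without HFD pool 2 or 3 of 4 weeks or HFD pool 3 of 20 weeks (adjusted p = 0.0797, 0.0891 and 0.0506).

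An F-test of whether the diet effect differed among the 5 weeks did not pass for any main probe (adjusted p = 0.507 for Lep, 0.0974 for Sfrp5, 0.658 for Bmp3, 0.0808 for Mest and 0.0935 for Npr3). It passed for 29% of all probes, and for 6.05% once the 2-week arrays were left out, when the adjusted p-values of the 5 genes were 0.194 to 0.98. Under median scaling 4 of the 5 genes passed (adjusted p = 0.0279 for Lep, 0.0323 for Sfrp5, 0.0414 for Mest and 3.63e-05 for Npr3, with 0.222 for Bmp3), as did 34.4% of all probes.

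The other probes of Mest and Npr3 did not behave alike at 2 weeks. Mest probe ILMN_2846904 had 11.31, 11.54 and 11.54 in the HFD pools, against 8.40, 8.77 and 8.26 in the ND pools. Npr3 probe ILMN_2496537 had 11.01, 10.81 and 11.15 in the HFD pools, against 8.03, 8.28 and 7.99 in the ND pools. Npr3 probe ILMN_1236914 had 9.80, 9.96 and 9.99 in the HFD pools, against 8.40, 8.81 and 8.29 in the ND pools. Each was called as higher, with log2 fold changes of 2.98, 2.89 and 1.42, which made 3 of the 12 member probes, where 3.64% of all probes were called. The main probes of the same genes had 0.67 for Mest and -0.35 for Npr3 on the same arrays, and ILMN_2642418 of Mest had 0.15.

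These 3 probes were low on every array with a high background. Mest probe ILMN_2846904 had 8.26 to 9.62 on the 9 arrays with a high background and 10.99 to 13.14 on the other 21. Npr3 probe ILMN_2496537 had 7.99 to 8.49 on the 9 arrays and 10.45 to 11.76 on the 21. Npr3 probe ILMN_1236914 had 8.29 to 9.23 on the 9 and 9.80 to 10.83 on the 21. The ranges did not overlap for any of them. They were lower at 24 than at 20 weeks in both diets, with log2 differences of -2.85, -3.07 and -1.52 in HFD and of -3.15, -3.06 and -1.44 in ND, while the main Npr3 probe differed by 0.00 in HFD and -0.02 in ND. At 24 weeks, when all 6 arrays had the high background, ILMN_2846904 had 9.28, 9.62 and 9.30 in HFD pools and 9.33, 9.61 and 9.46 in ND pools, which overlapped. The diet effect at 2 weeks and the array background cannot be told apart on these probes, and the same holds for the 2-week values of the main probes.

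**Figure D2:**
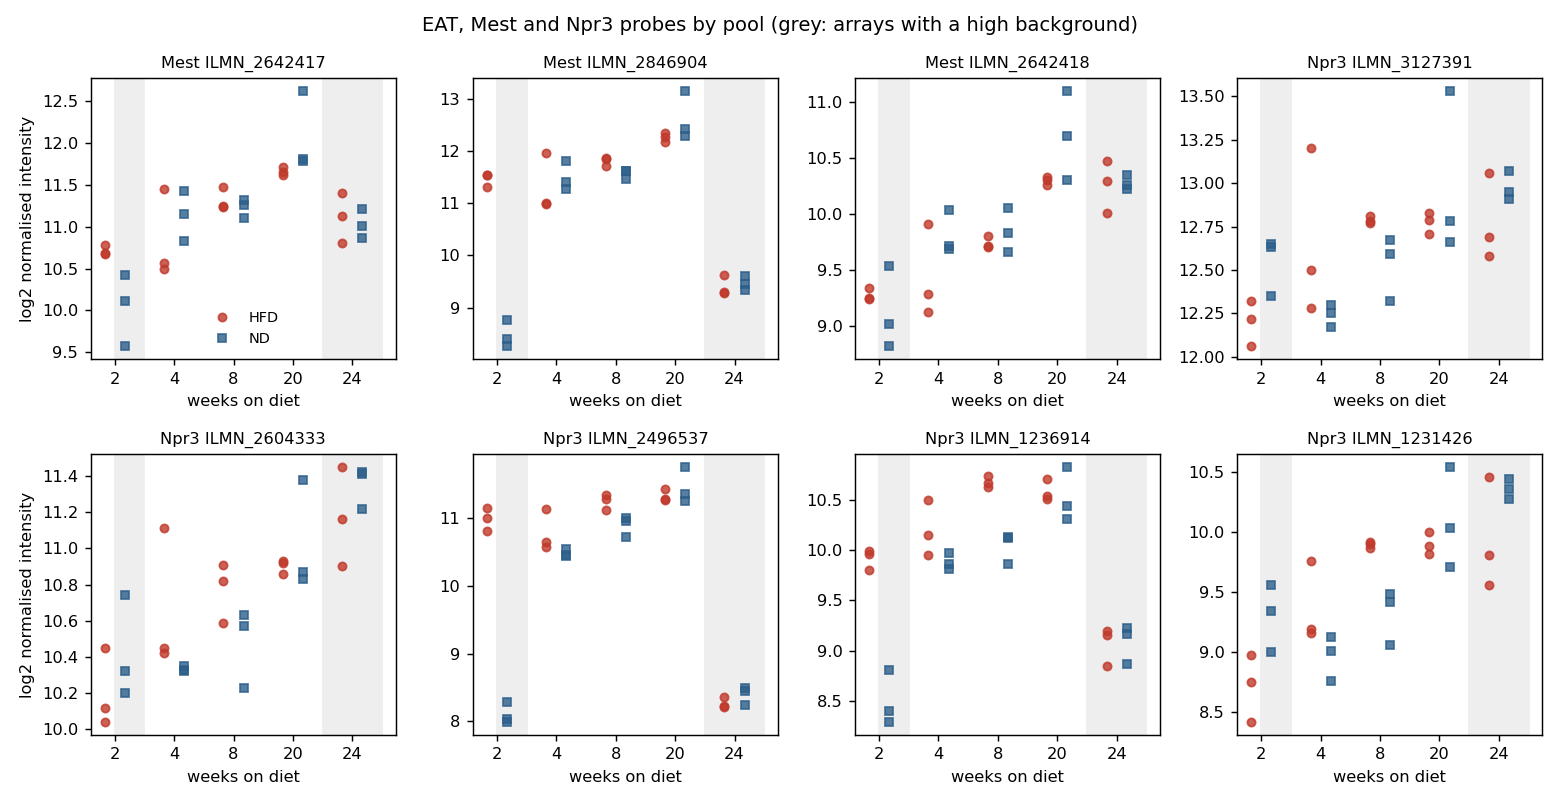
Log2 quantile normalised intensity of Mest and Npr3 probes in EAT for each pool of HFD and ND by week, with arrays of high background in grey. ILMN_2846904 of Mest and ILMN_2496537 and ILMN_1236914 of Npr3 were lower on all 9 grey arrays than on any other array, and the main Npr3 probe was not.

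In MAT all 5 genes were higher in the HFD pool than in the ND pool at 20 and at 24 weeks. There was 1 pool per diet and week, so that a single week had no replicate check. At 2 weeks the array background was 81.3 in HFD and 108 in ND, so that diet and background cannot be told apart there. The Npr3 differences of that week were -0.65 on the main probe, 0.41 on ILMN_2496537 and 0.14 on ILMN_1236914. ILMN_2604333 and ILMN_1231426 had -0.49 and -0.36. Values below that use all 5 weeks, or the early weeks, include this pair. Lep had 11.65, 12.46, 13.25, 15.02 and 14.23 in the HFD pools from 2 to 24 weeks, against 12.11, 11.42, 13.30, 13.72 and 12.92 in the ND pools. Sfrp5 had 7.79, 7.33, 7.88, 10.67 and 10.04 in the HFD pools and 8.03, 7.26, 8.28, 8.86 and 7.80 in the ND pools. Both genes were close between the diets at 8 weeks and well apart at 20 and 24 weeks. Bmp3 had 8.31, 8.36, 8.68, 10.59 and 9.63 in the HFD pools and 8.76, 7.81, 9.33, 9.85 and 8.50 in the ND pools. Mest had 7.01, 7.92, 8.58, 10.64 and 9.49 in the HFD pools, with the 2-week pool not detected, and 7.63, 8.12, 9.55, 9.76 and 8.33 in the ND pools. Npr3 had 9.22, 10.48, 11.20, 12.29 and 11.63 in the HFD pools and 9.87, 9.61, 11.40, 11.20 and 10.62 in the ND pools. Each gene was at its highest in HFD MAT at 20 weeks.

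**Figure D3:**
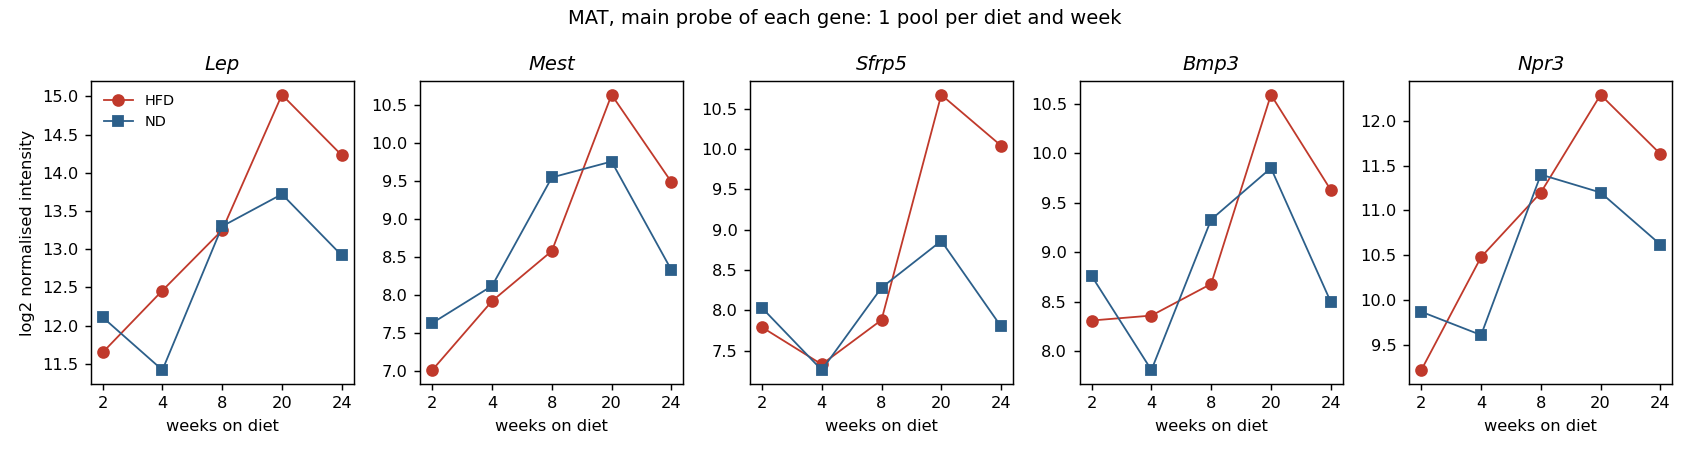
Log2 quantile normalised intensity of the main probe of each gene in MAT against weeks of feeding, 1 point per pool (n = 1 per diet and week), for HFD and ND. The HFD pool lay above the ND pool for all 5 genes at 20 and 24 weeks, and below it for all 5 at 2 and 8 weeks. At 2 weeks the array background differed between the diets.

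At 20 weeks HFD MAT exceeded ND MAT 3.49-fold for Sfrp5, 2.46-fold for Lep, 2.12-fold for Npr3, 1.83-fold for Mest and 1.67-fold for Bmp3. At 24 weeks the differences were 4.71-fold for Sfrp5, 2.49-fold for Lep, 2.23-fold for Mest, 2.19-fold for Bmp3 and 2.02-fold for Npr3. Differences over 2-fold thus held for 3 of 5 genes at 20 weeks, against 0.0751% of all probes, and for 5 of 5 at 24 weeks, against 1.21%. Among probes detected in both pools of the week the shares were higher, at 0.176% and 2.38%. Lep, Sfrp5 and Npr3 passed 2-fold at both weeks, as did 0.0243% of all probes. These counts use the main probes, and for Npr3 they depend on that choice. The other Npr3 probes detected in MAT gave 1.70- to 1.92-fold at 20 weeks and 1.21- to 1.89-fold at 24 weeks. The other Mest probes gave 1.70- and 1.87-fold at 20 weeks and 2.09- and 2.34-fold at 24 weeks. At 2, 4 and 8 weeks 0, 1 and 0 of the genes were over 2-fold higher, against 1.59%, 0.464% and 0.13% of all probes, and the gene at 4 weeks was Lep. Among probes detected in both pools these shares were 3.59%, 0.529% and 0.307%. The median log2 difference of the 5 genes from 2 to 24 weeks was -0.46, 0.55, -0.40, 1.09 and 1.16, against medians of all probes between -0.0125 and 0.0109.

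With the 5 weeks as pairs, the mean log2 difference was 0.69 for Sfrp5 (SE 0.427), 0.63 for Lep (SE 0.288, 95% CI -0.06 to 1.32), 0.42 for Npr3, 0.27 for Bmp3 and 0.05 for Mest. None passed in limma (adjusted p = 0.849 to 0.987), and exact two-sided sign-flip p-values were 0.25 for Lep and Npr3, 0.438 for Sfrp5 and Bmp3 and 0.938 for Mest, where the smallest possible is 0.0625. Over all probes limma called 0 (0% of all probes), with 2685 at an unadjusted p under 0.05. The difference of 20 and 24 weeks less that of 2, 4 and 8 weeks, chosen after the data were seen, was 2.21 for Sfrp5, 1.61 for Mest, 1.13 for Lep, 1.12 for Bmp3 and 1.04 for Npr3. Its exact permutation p-values were 0.1 for Sfrp5 and Mest and 0.2 for the others, where 0.1 is the smallest possible, and limma again called 0 probes (0%), with 1692 at an unadjusted p under 0.05.

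MAT pools also differed in their content of other cells. The adipocyte marker mean was 11.27 in HFD and 11.29 in ND at 20 weeks, and 10.68 in HFD and 11.33 in ND at 24 weeks. Lymphocyte markers stood at 9.49 in HFD and 8.80 in ND at 20 weeks and at 11.13 and 10.31 at 24 weeks, in the same order of diets. Intestinal markers stood at 8.37 in HFD and 8.14 in ND at 2 weeks, at 9.64 in HFD and 7.34 in ND at 4 weeks, and at 7.34 in HFD and 9.80 in ND at 8 weeks. They stood at 10.03 in HFD and 10.78 in ND at 20 weeks and at 10.04 in HFD and 8.08 in ND at 24 weeks. The ND pool of 2 weeks had muscle markers at 12.02, where the HFD pool had 7.51. Pancreatic markers were high at the early weeks in both diets, with 12.97 in HFD and 13.16 in ND at 2 weeks, 10.72 and 10.66 at 4 weeks, and 7.86 and 9.12 at 8 weeks, in the same order of diets, and 6.90 to 6.94 at 20 and 24 weeks. After each array's adipocyte marker mean was subtracted, an alternative chosen after seeing the data, the differences of 20 weeks were 0.75 to 1.82 and those of 24 weeks 1.66 to 2.89. Lep then passed in limma over the 5 weeks (0.85, adjusted p = 0.00125), as did Sfrp5 (0.91, adjusted p = 0.000296) and Npr3 (0.64, adjusted p = 0.0391). Of all probes 0.861% were higher at an adjusted p under 0.05, and the median of all probes was 0.22. The weeks differed, however. At 2, 4 and 8 weeks the Sfrp5 differences were 0, 0.08 and -0.23. Those of Lep were -0.21, 1.05 and 0.13, and those of Npr3 were -0.4, 0.87 and -0.02. An exact sign-flip p, which cannot fall below 0.0625 here, is not given for this setting. These limma values therefore do not show a diet difference shared by the 5 weeks. The part of the other cell types in the differences was not tested.

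Across EAT pools the 5 genes correlated positively with each other in each diet. How many other pairs of probes correlate as highly was not counted, so that this cannot be called particular to the 5 genes. All 10 pairs had a positive Pearson's r over the 15 HFD pools (0.642 to 0.946, median 0.773), and 10 passed a permutation test after Benjamini-Hochberg adjustment over 20 pairs. All 10 had a positive r over the 15 ND pools (0.468 to 0.945, median 0.751), and 9 passed, the exception being Mest with Npr3 (r = 0.468, adjusted p = 0.0802). Lep and Sfrp5 had the highest value in each diet, with r = 0.946 in HFD (Spearman's rho 0.906) and 0.945 in ND (rho 0.939), each at an adjusted permutation p of 0.0001. Lep with Bmp3 had r = 0.777 in HFD and 0.865 in ND, Lep with Npr3 0.801 and 0.748, and Lep with Mest 0.769 and 0.759, in the same order of diets. Bmp3 with Npr3 had r = 0.863 in HFD and 0.611 in ND. The test permutes single pools and so takes pools of a week as exchangeable, which they are not where a gene changes with weeks.

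**Figure D4:**
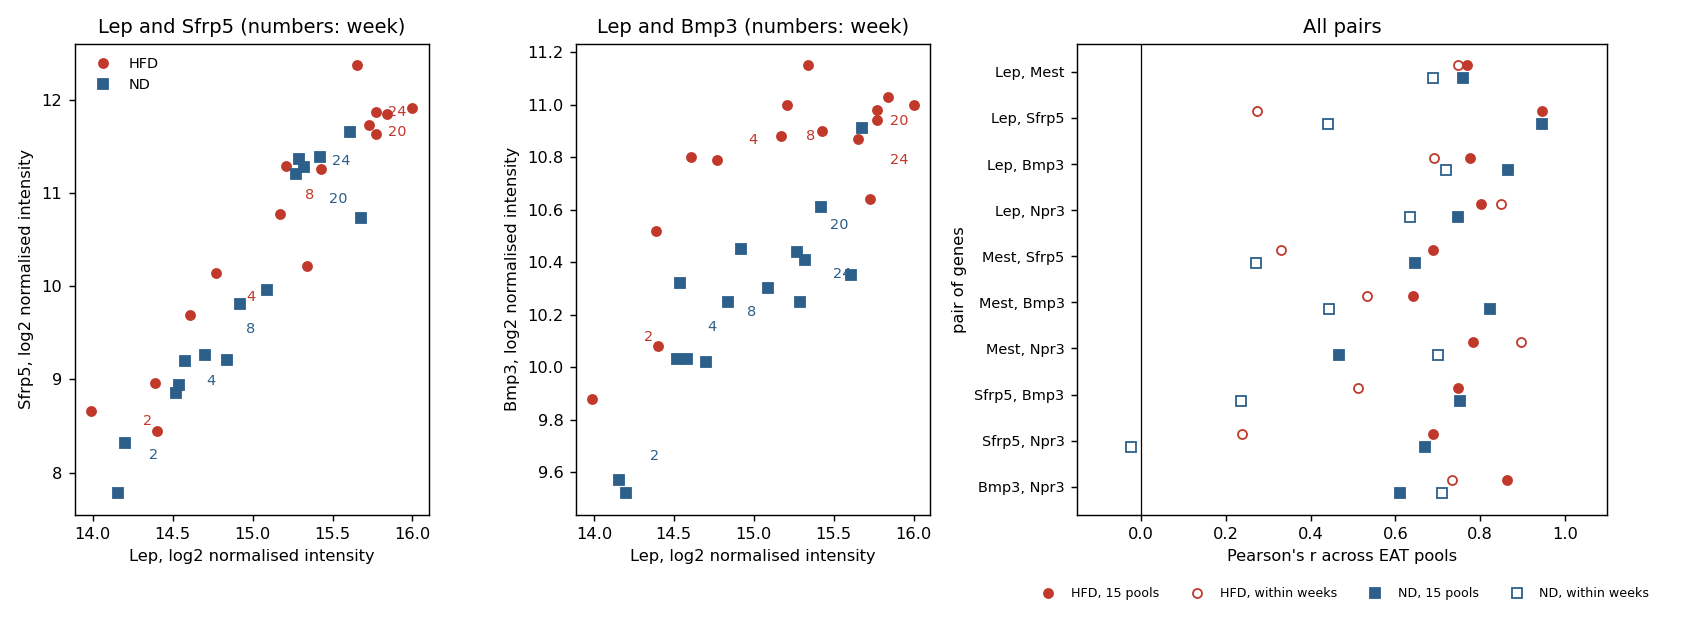
Lep against Sfrp5 and Lep against Bmp3, as log2 intensity per EAT pool with the week number near the mean of each group of 3 pools, and Pearson's r of all 10 pairs in HFD and ND, with filled points for the 15 pools and open points for deviations from the week means. The r of Lep with Sfrp5 was 0.946 in HFD and 0.945 in ND over all pools, and 0.274 and 0.440 within weeks.

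Within weeks the order of the pairs changed. On deviations from the week means, r of Lep with Sfrp5 was 0.274 in HFD and 0.440 in ND (exact permutation p = 0.455 and 0.193). Lep with Bmp3 had 0.691 in HFD and 0.719 in ND within weeks, Lep with Npr3 0.85 and 0.635, and Mest with Npr3 0.897 and 0.701. Some pools differed more after normalisation than in their intensities before it, and which of these is nearer the level in the tissue was not tested. HFD pool 1 of 4 weeks had Npr3 at 13.20 and pool 2 at 12.50, from 4950 and 4850 intensity units. ND pool 1 of 20 weeks had Lep at 15.68 and pool 3 at 15.32, from 39490 and 41360 units. The part of such shifts of whole arrays in the within-week values was not tested. The within-week r was positive for 10 of 10 pairs in HFD (0.238 to 0.897) and for 9 of 10 in ND (-0.0245 to 0.719). An exact p under 0.05 was reached by 3 pairs in each diet, and after adjustment over the 20 pairs by 0 in each. Without the 2 pools farthest from the median of the first gene, 8 of 10 pairs passed in each diet. The relations of Sfrp5 with Bmp3 and of Sfrp5 with Npr3 in HFD then rested on those pools (r = 0.446 and 0.457 without them), as did that of Mest with Sfrp5 in ND (r = 0.646 over all pools and 0.555 without them, adjusted p = 0.00816 and 0.0579). Without the 2-week arrays 5 pairs passed in each diet, with r of Lep with Sfrp5 at 0.885 in HFD and 0.90 in ND, and r of Sfrp5 with Bmp3 at 0.0707 in HFD and 0.499 in ND.

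The genes most like each member over the 18 EAT arrays of 4, 8 and 20 weeks were sought among 13359 probes detected on all of them, as a description, since these arrays share the diet and week groups. For Lep they were Cdr2 (r = 0.971), Pqlc3 (0.958) and Actb (0.946), which encodes the cytoskeletal beta-actin. For Sfrp5 they were Fgf13 (0.959), Ephx1 (0.956), a microsomal epoxide hydrolase, and Syp (0.941), which encodes synaptophysin. For Bmp3 they were H3c14 (0.898), a histone gene, Mlkl (0.859), the effector of necroptosis, and Nipal3 (0.858). For Mest they were Dnajc6 (0.936), Tmem182 (0.935) and Ghitm (0.934). For Npr3 they were Oxct1 (0.946), which is needed to use ketone bodies, Cav2 (0.943), a caveolin of the adipocyte surface, and Rmdn3 (0.937).

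Other genes of the same pathways were followed in 7 lists with 86 of 90 genes measured in EAT. At 4 and 8 weeks limma called 0 of the 86, with 4 higher and 8 lower at an unadjusted p under 0.05 at 4 weeks and 5 higher and 8 lower at 8 weeks. At 20 weeks 0 were called as higher and 2 as lower, where 0.636% of all probes were called as higher and 0.435% as lower. At 24 weeks 1 was called as higher and 3 as lower, against 0.976% and 0.287% of all probes. At an unadjusted limma p under 0.05, 7 were higher and 32 lower at 20 weeks, and 8 were higher and 31 lower at 24 weeks. No share of all probes is given for the unadjusted rule, so its counts have no comparison. At 2 weeks 8 were called as higher, against 3.64% of all probes, and 0 as lower, on arrays whose background differed between the diets. Among the 11 measured of 13 other adipokines, Nrg4, a growth factor released by fat, was lower in HFD EAT at 20 weeks (means of 10.97 in HFD and 12.37 in ND, log2 fold change -1.40, adjusted p = 0.000235) and at 24 weeks (10.51 in HFD and 11.86 in ND, -1.35, adjusted p = 0.000229). Agt, which encodes angiotensinogen, was lower at 20 weeks (9.22 in HFD and 10.51 in ND, -1.30, adjusted p = 1.81e-06) and at 24 weeks (9.28 in HFD and 10.69 in ND, -1.41, adjusted p = 2.49e-07). The median log2 fold change of the list was -0.10, -0.09, 0.01, -0.07 and -0.39 from 2 to 24 weeks, against -0.00061 for all probes at 20 weeks and -0.00269 at 24 weeks. The adipocyte markers were lower in HFD at 20 and 24 weeks too, with medians of -0.39 and -0.46 over that list, and their part in these values was not tested.

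Of 14 measured imprinted genes, Igf2, a growth factor expressed from the paternal copy, was lower at 24 weeks (9.76 in HFD and 10.84 in ND, -1.08, adjusted p = 1.58e-05). Igf2r, the maternally expressed receptor that clears Igf2, was higher (10.73 in HFD and 9.69 in ND, 1.04, adjusted p = 6.41e-08), and the other 12 were not called from 4 weeks on. From 4 weeks on 0 genes were called among the 19 Wnt ligands, receptors and antagonists, the 19 BMP genes, the 9 genes of the natriuretic peptide system, the 8 of the leptin receptor and its signalling, and the 6 of caveolae. The median log2 fold changes of these 5 lists at 24 weeks were -0.01, -0.24, -0.08, 0.06 and -0.23. The probe of Lepr, the leptin receptor, was not detected on any of the 30 EAT arrays.

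In liver the 12 member probes had 6.59 to 7.51 log2 units on the liver's own scale and weekly diet differences of -0.17 to 0.23. An F-test over 8 weeks passed for 1 of the 5 genes, Mest (main probe at 6.61 to 7.25, adjusted p = 0.0475), against 15.5% of all probes. Both other Mest probes did not pass (adjusted p = 0.146 and 0.724). The mean of the main probe, 6.94, exceeded that of only 39.5% of all probes in liver. No detection p-values were at hand for liver, so that expression of Mest there cannot be told from background. The other 4 genes had adjusted p-values of 0.346 to 0.96.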

How the data were processed

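RNA pools were hybridised to Illumina MouseWG-6 v2 arrays. Per the submitters' processing notes, BeadStudio 3.1.3 and R 2.4.1 were used. The deposited files of EAT and MAT hold linear, not normalised intensities with a detection p-value for every probe. The authors also deposited quantile normalised log2 values of each tissue, which were used for liver.
EAT and MAT intensities were quantile normalised separately and log2 transformed in R 4.3.3, and differed from the deposited log2 values by at most 0.000715 and 0.00112. Levels are therefore not compared between tissues. Symbols came from the array annotation, and 34807 of 34885 probes with 1 symbol matched the reference gene table. HFD was compared with ND with limma 3.58.1 in 1 fit per tissue, with Benjamini-Hochberg adjustment over all 45281 probes and no filter on detection. With 3 pools per diet an exact test reaches 0.1 at best. Correlations were tested with 100000 permutations in SciPy 1.17.1. Whether the pools came from separate mice is not stated for each array, so the p-values measure the spread between pools. Scripts were tested on simulated data. The number of arrays limits the precision. The 5 genes and the lists were chosen with earlier results of these data known.
The named genes were the 5 members with all their probes, the 3 probes most like each, and the called genes of the pathway lists at 20 and 24 weeks. Alternatives were median scaling, normexp correction with an offset of 16 (neqc), the deposited values, a filter on detection in 3 arrays, the second probe, the t-test of the methods, a replicate block, each week alone and each pool left out. Leaving out HFD pools 2 and 3 of 4 weeks, subtracting adipocyte markers and the averages over weeks were chosen after seeing the data.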

Additional observations from a re-analysis of the deposited data

Results flagged for a closer look

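The diet effect of 4 probes in EAT differed between weeks in the F-test over 5 weeks. The adjusted p was 1.35e-08 for Mest probe ILMN_2846904, 1.8e-11 for Npr3 probe ILMN_2496537, 3.31e-05 for Npr3 probe ILMN_1236914 and 0.0112 for Npr3 probe ILMN_1231426. The same test passed for 29% of all probes. Without the 2-week arrays the adjusted p-values were 0.6, 0.163, 0.129 and 0.0921. At 2 weeks the array background was 89.9 to 92.1 on HFD arrays and 118 to 120 on ND arrays, so that background and diet cannot be told apart there. ILMN_1231426 ran the other way from the first 3 probes at 2 weeks, with 8.42, 8.75 and 8.98 in HFD pools and 9.00, 9.34 and 9.56 in ND pools.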

How the results depend on the processing

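Of 1148 values recomputed under the alternatives, 1029 kept their direction and their side of the threshold or stayed within 1.5 times, 42 no longer passed, 47 newly passed and 30 changed sign, and the cause was not tested. The fit with replicate numbers as a block changed no call (Lep averaged over 4 to 24 weeks 0.34, adjusted p = 0.00754), and deviations of same-numbered pools correlated at -0.325 to 0.313, so that the numbers do not pair the pools. With the methods' t-test and Benjamini-Hochberg adjustment 0 genes were called at 8 weeks. At an adjusted p alone, 2 passed at 2 weeks. With the adipocyte mean subtracted, 1, 1 and 2 genes were called at 4, 20 and 24 weeks, where 0.219%, 1.87% and 4.13% of all probes were called as higher. Lep in MAT was 0.85, and sign changes were 0.11 for Lep at 2 weeks, 0.18 and 0.38 for Npr3 at 20 and 24 weeks and 0.20 for Mest averaged. This subtraction moves every probe of an array alike. The median of all probes in EAT was then 0.099, 0.39 and 0.576 at 2, 20 and 24 weeks and 0.33 averaged. Under median scaling 4 genes passed the F-test between weeks, Npr3 at 20 weeks was 0.14, Mest at 24 weeks -0.05, and the differences in the 20-minus-4-week change were 0.30 for Mest and 0.15 for Sfrp5. The next probe of Mest had -0.06 at 24 weeks. Averaged Npr3 was -0.05 without 4 weeks and 0.00 without 8 weeks. Without HFD pools 2 and 3 of 4 weeks, Mest was 0.31 at 4 weeks and 0.02 averaged, the HFD change from 4 to 20 weeks was -0.17 for Bmp3 and -0.43 for Npr3, and the Lep difference -0.32. Mest in MAT was -0.11 with neqc, -0.16 without 20 weeks and -0.23 without 24 weeks. In liver 0 genes passed when weeks were averaged. Without the 2-week arrays 5 pairs correlated in HFD and 5 in ND. Leaving out 1 pool gave ranges of -0.11 to 0.10 for Lep at 2 weeks, -0.38 to 0.05 for Npr3 at 20 weeks, -0.06 to 0.23 for Mest at 24 weeks, 0.00 to 0.13 for averaged Npr3, -0.07 to 0.39 for the HFD change of Npr3, and -0.04 to 0.33 for Lep and -0.28 to 0.20 for Mest in the difference of that change. The depth of an array limits dim probes, such as Mest in the HFD MAT pool of 2 weeks.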
